A study of Mus musculus with 4 samples.

Results

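The genes described here encode the subunits of the mitochondrial respiratory chain and ATP synthase, in islets of mice with and without Pdx1-Cre on a floxed Ggcx background. Members were the protein-coding rows named Nduf (a, b, c, s or v series), Sdha to Sdhd, Uqcr, Cyc1, Cycs, Cox4 to Cox8, Atp5 or mt-, that reached a value of 10 in 2 or more of the 4 libraries. By name 102 rows matched, and 92 of them passed the rule on values, out of 16589 genes tested: 84 nuclear genes and 8 genes of the mitochondrial genome. Of the nuclear genes, 36 belong to complex I, 4 to complex II, 9 to complex III, 17 to complex IV and 17 to complex V, and the remaining one is cytochrome c, Cycs. Ndufa4 and Ndufa4l2 were counted in complex IV, and Ndufb1-ps and Cox5b-ps are labelled protein-coding in the table. Just inside the rule lay Cox5b-ps, at 21.9 and 24.0 in KO islets against 23.5 and 18.5 in control islets, and just outside it mt-Co3, at 15.6 and 5.75 in KO islets against 2.04 and 9.74 in control islets.

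Libraries were made from poly(A)-enriched RNA of freshly isolated islets, the endocrine clusters of the pancreas, from C57BL/6 mice aged 30 weeks. The knockout (KO) group was Ggcx flox/flox; Pdx1-Cre, and the control group Ggcx flox/flox without Cre. Islets of 2 mice were combined in each library, with 2 such pools per genotype. Pdx1-Cre is active in the pancreatic lineage from early development. No library carried Cre with an intact Ggcx gene, so effects of the transgene and of the loss of Ggcx cannot be told apart. In bulk islets, fewer cells of a type and less RNA per cell cannot be told apart either.

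The respiratory chain passes electrons from NADH through complex I, or from succinate through complex II, to ubiquinone, then through complex III and cytochrome c to oxygen at complex IV. Complexes I, III and IV pump protons across the inner mitochondrial membrane, and complex V, the ATP synthase, uses the gradient to make ATP. In beta cells this step couples glucose metabolism to insulin release, since the rise in ATP closes potassium channels in the cell membrane. Mitochondrial DNA encodes a small core of complexes I, III, IV and V and no part of complex II. All other subunits come from nuclear genes.

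Reads assigned to genes numbered 47624630 and 51756221 in the KO libraries, against 48389100 and 50524121 in the control libraries. Values below are the authors' read counts normalized to library size, and log2 fold changes are KO over control on the log2(value + 1) scale, with the standard error from limma. Control libraries are named by their numbers in the deposited table, column 2 and column 3. Ggcx, the targeted gene, had values of 234.2 and 643.4 in KO islets, against 3971 and 3981 in control islets, in the direction of the labels. The defining beta cell transcripts were present in every library: 8 beta cell markers summed to 10853429 and 11160902 in KO islets, against 10820190 and 10315017 in control islets.

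No subunit passed the test at an adjusted p under 0.05 (limma, Benjamini-Hochberg over all tested genes), in either direction. Over all tested genes, 0.247% were called higher and 0.374% lower in KO islets. Most nuclear subunits nevertheless stood slightly higher in the KO libraries. The median log2 fold change was 0.07 over the 84 nuclear subunits, against 0.00 over all tested genes. Of the 84, 79 were above 0, or 74 with libraries scaled to a common total. Without KO replicate 1 it was 73, and without control column 3 it was 67. Over the 8 mitochondrial subunits the median was 0.03, with 5 above 0. It was -0.01 without KO replicate 1, with 3 above 0, and 0.08 without KO replicate 2, with 8 above 0. The nuclear medians without the same libraries were 0.07 and 0.06, so the order of the nuclear and mitochondrial medians turned with the KO library left out. In 48 nuclear subunits, or 57.1%, both KO values lay above both control values, against 22.0% of all tested genes. In 2 of them, Ndufs1 and Cox6a2, both KO values lay below both control values, against 23.0% of all tested genes. At an unadjusted p under 0.05, 9 subunits were higher and 1 lower in KO islets, out of 92, where all tested genes gave 6.74% higher and 7.34% lower. Those described below include Ndufs6, Ndufa9 and Ndufb2 of complex I, Ndufa4 and Cox7a2 of complex IV, and Atp5h, Atp5o and Atp5e of complex V, and the lower one was Cox6a2.

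**Figure D1:**
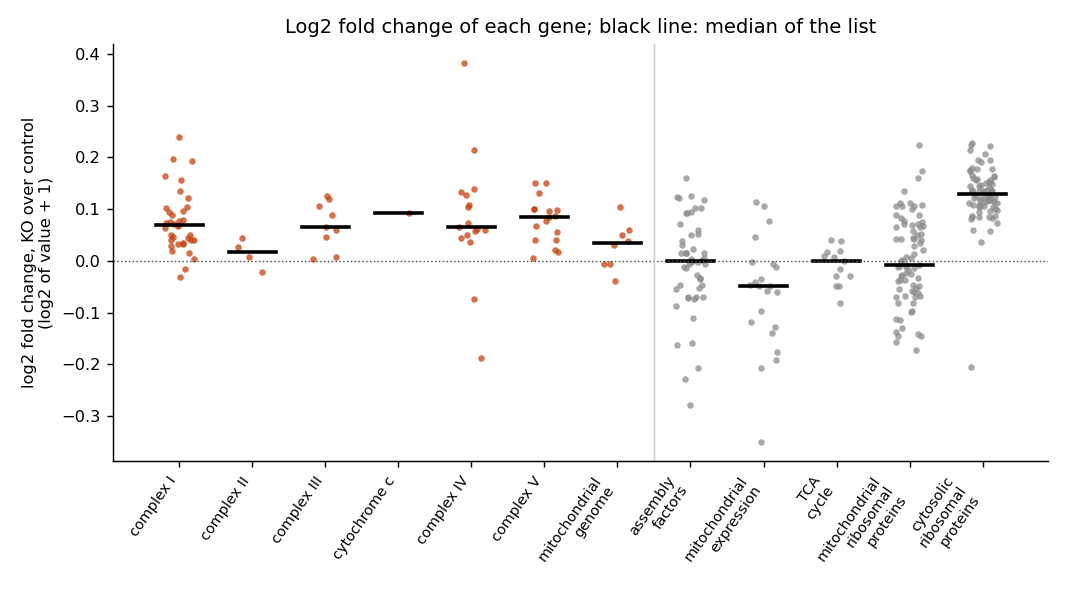
Log2 fold change of each gene, KO over control (vertical axis, log2 of value + 1), for the nuclear subunits by complex and the mitochondrial subunits (orange points), and for other gene lists (grey points); black lines are medians. The medians of complexes I, III, IV and V lie between 0.06 and 0.08, that of complex II at 0.02, and that of the cytosolic ribosomal proteins at 0.13.

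The offset was of the same order as the gap between the control libraries. Taking each gene's deviation from its mean over the 4 libraries, the median over nuclear subunits was 0.029 and 0.039 in the KO libraries, against -0.008 and -0.054 in control columns 2 and 3, on the log2 scale. Control column 3 was thus the lowest library, and the controls lay farther apart than the KO libraries. Without that column the median log2 fold change of the nuclear subunits was 0.04, and without column 2 it was 0.09. The groups did not overlap in complexes I, III, IV and V, and overlapped in complex II and in the mitochondrial genes.

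**Figure D2:**
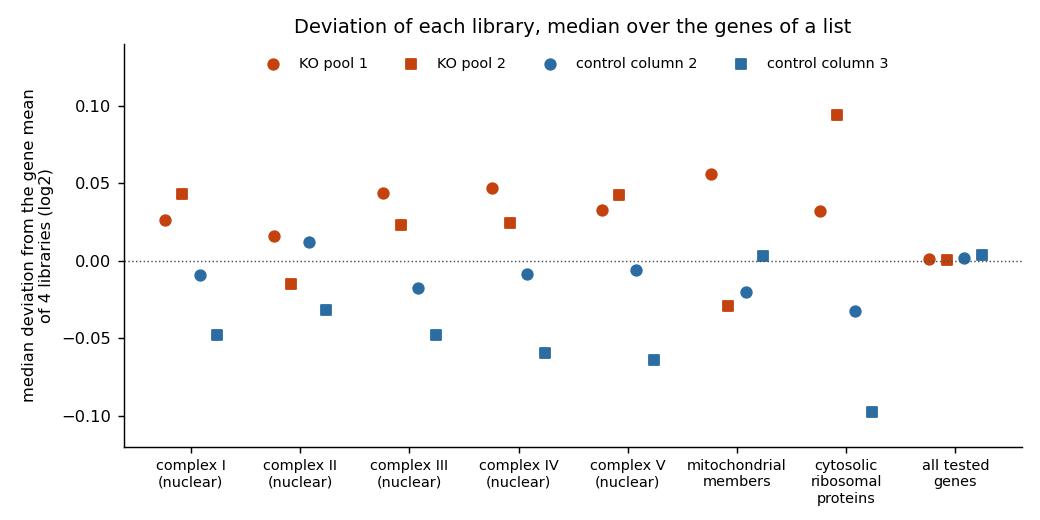
Median over the genes of a list of each library's deviation from the gene's mean of 4 libraries (vertical axis, log2), for KO pools (orange) and control pools (blue). In complexes I, III, IV and V both KO pools lie above both control pools, with control column 3 lowest; in complex II and the mitochondrial subunits the genotypes overlap, and all tested genes lie close to 0.

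Complex I takes electrons from NADH through nuclear core subunits that hold the flavin and the iron-sulfur clusters, and through membrane core subunits made in the mitochondrion. Accessory subunits surround this core and serve its assembly and stability. Among the 29 nuclear accessory subunits that the name rule matched, all log2 fold changes were above 0 with the 4 libraries as deposited. They ran from 0.00 to 0.20 with a median of 0.07. In 17, or 58.6%, both KO values lay above both control values, against 22.0% of all tested genes. Ndufb3 fell below 0 with libraries scaled to a common total. Of all 36 nuclear complex I subunits, 34 were above 0, or 30 without control column 3. Ndufab1, a complex I subunit that the name rule does not match, was listed with the assembly factors. It had 1108 and 1135 in KO islets, against 1141 and 1146 in control islets, a log2 fold change of -0.03 ± 0.06. Among the 7 nuclear core subunits the median was 0.03, and 5 were above 0. Both KO values lay above both controls in 2, or 28.6%, and below in 1, or 14.3%, where all tested genes gave 22.0% and 23.0%.

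Ndufs1, the largest core subunit, carries several iron-sulfur clusters. It had 3566 and 3549 in KO islets, against 3665 and 3604 in control islets, a log2 fold change of -0.03 ± 0.05 (limma adjusted p = 0.835). The flavoprotein Ndufv1, which binds NADH, the iron-sulfur subunit Ndufv2 and the core subunit Ndufs3 had log2 fold changes of -0.02, 0.03 and 0.02. The sign for Ndufv1 turned with a common upper quartile. Ndufs7 and Ndufs8, also iron-sulfur subunits, had log2 fold changes of 0.06 and 0.07. Among these 5, both KO values lay above both controls in Ndufs8 alone.

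Of the accessory subunits, Ndufa9, which lies where the peripheral and membrane arms meet, had 1683 and 1800 in KO islets, against 1480 and 1559 in control islets. Ndufs6, a zinc-binding subunit needed late in assembly, had 1460 and 1387 in KO islets, against 1247 and 1241 in control islets. Both genes were higher in each KO library than in each control, with log2 fold changes of 0.20 ± 0.06 and 0.19 ± 0.06 and limma adjusted p of 0.20 and 0.196. Ndufb2, in the membrane arm, had 1741 and 1746 in KO islets, against 1520 and 1611 in control islets, and its log2 fold change was 0.16 ± 0.06. At the other end, Ndufb3 had 1575 and 1491 in KO islets, against 1583 and 1475 in control islets, with overlapping groups and a log2 fold change of 0.004, which turned to -0.004 with a common total.

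Complex II, succinate dehydrogenase, is also an enzyme of the TCA cycle. Sdha, the flavoprotein that oxidizes succinate, had 12043 and 11788 in KO islets, against 12148 and 12034 in control islets. Sdhb, the iron-sulfur subunit, had 2645 and 2724 in KO islets, against 2613 and 2590 in control islets. The membrane anchors were Sdhc, at 4680 and 4529 in KO islets against 4704 and 4463 in control islets, and Sdhd, at 5461 and 5290 in KO islets against 5351 and 5199 in control islets. The genotypes separated in Sdhb alone, and the log2 fold changes ran from -0.02 to 0.04. For Sdha the 95% interval of the log2 fold change was -0.12 to 0.08. The sign for Sdhc, 0.01, turned below 0 with the libraries scaled to a common total.

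In complex III the iron-sulfur protein Uqcrfs1 had 4184 and 4191 in KO islets, against 3962 and 4068 in control islets. Cyc1, the cytochrome c1 that hands electrons to cytochrome c, had 2130 and 2037 in KO islets, against 1975 and 1897 in control islets. Both KO values lay above both controls in each gene, with log2 fold changes of 0.06 ± 0.05 and 0.11 ± 0.06. The core proteins, Uqcrc1 and Uqcrc2, had overlapping groups and log2 fold changes of 0.05 and 0.007, and that of Uqcrc2 turned to -0.0005 with a common total. Of the 5 small subunits, Uqcrh, the hinge protein, had the largest difference, with 3791 and 3591 in KO islets against 3490 and 3280 in control islets (log2 fold change 0.12 ± 0.06, limma adjusted p = 0.364). Uqcrb, which lines the quinone site, had 2799 and 2735 in KO islets, against 2805 and 2713 in control islets; its log2 fold change of 0.004 turned to -0.004 with libraries scaled to a common total. Cycs, the mobile carrier cytochrome c, had 1437 and 1236 in KO islets, against 1336 and 1169 in control islets. Its libraries interleaved, and its log2 fold change was 0.09 ± 0.09.

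Complex IV reduces oxygen in a core made by the mitochondrial genome, ringed by small nuclear subunits. Of 17 nuclear subunits, 10, or 58.8%, had both KO values above both control values and 1, or 5.88%, had both below. All tested genes gave 22.0% above and 23.0% below. Ndufa4 (ENSMUSG00000029632; GRCm38 chromosome 6, 11900292 to 11907497, minus strand), named as a complex I protein and since placed in complex IV, had 1875 and 1632 in KO islets, against 1436 and 1254 in control islets. That was the largest log2 fold change of any subunit, 0.38 ± 0.09, or 1.30-fold (limma, unadjusted p = 0.00186, adjusted p = 0.0904). No 50-base stretch of it occurs in another annotated gene. The authors' deposited table gave Ndufa4 an adjusted p of 0.0233 and the DESeq2 rerun 0.0181, against 0.0818 in edgeR. Its limma adjusted p was 0.0175 without KO replicate 2, 0.0292 without control column 2, 0.24 without KO replicate 1 and 0.186 without control column 3.

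Of the genes with an adjusted p in the authors' deposited table, 0.830% were called higher in KO islets, and in the DESeq2 rerun 0.943% were. Each of these called 2 subunits higher, of 89 with an adjusted p. edgeR called 0.344% of tested genes higher and no subunit.

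Several complex IV subunits come in alternative forms encoded by paralogs, and levels per kilobase of transcript compare them. Cox4i1, the general form, stood at 7013 per kilobase, against 61.0 for Cox4i2, the form linked to low oxygen and lung. Cox7a2 stood at 4697 and the assembly-linked Cox7a2l at 6865, against 52.2 for Cox7a1, the heart and muscle form. Cox8a, at 12287, had the highest level per kilobase in complex IV, and Ndufa4 stood at 2540, against 138 for Ndufa4l2. Rows that matched by name without passing the rule on values were the testis forms Cox6b2 (4.16 and 7.67 in KO islets, 2.04 and 3.90 in control islets) and Cox7b2 (1.04 and 0.959 in KO islets, 2.04 and 0.974 in control islets), Cox8b at 1.04 in KO replicate 1 and 0 in the other libraries, Cox8c at 0 in all 4, and a second row named Atp5o at 0 in all 4.

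**Figure D3:**
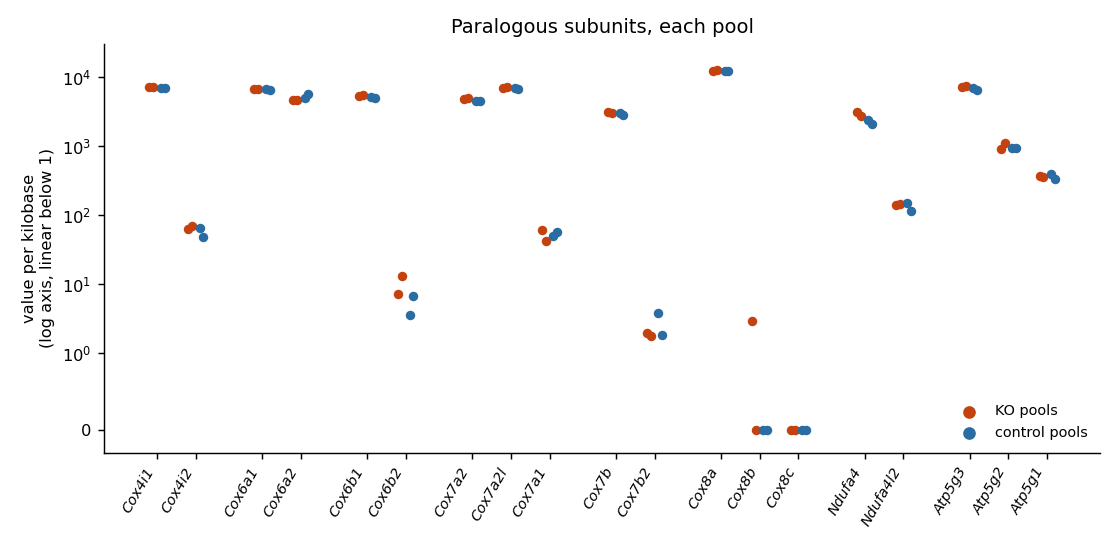
Value per kilobase of transcript in each pool (vertical axis, log scale that is linear below 1) for paralogous subunits of complex IV and the c-ring of complex V, KO pools in orange left of control pools in blue. Cox6a2 is the exception among heart and muscle forms, close to Cox6a1, while Cox4i2, Cox7a1 and Ndufa4l2 lie far below their partners.

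Cox6a2, the heart and muscle form of subunit 6a, was abundant in these islets, at 4964 per kilobase beside 6641 for Cox6a1. Its value was 3107 and 3194 in KO islets, against 3313 and 3890 in control islets. It was the subunit with the lowest log2 fold change, -0.19 ± 0.07 (limma adjusted p = 0.30), and rests on control column 3: without control column 2 the log2 fold change was -0.30 with an adjusted p of 0.0327, and without column 3 it was -0.07. Cox6a1 had 3862 and 3835 in KO islets, against 3773 and 3696 in control islets, a log2 fold change of 0.04 ± 0.05. Among the other forms, Cox7a2 had 3205 and 3283 in KO islets, against 2967 and 2927 in control islets, a log2 fold change of 0.14 ± 0.05 (limma adjusted p = 0.259). The low-level forms Cox4i2, Cox7a1 and Ndufa4l2 had values under 150 in every library and overlapping groups.

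Complex V consists of the catalytic F1 head, the rotating c-ring, the membrane part around it and the peripheral stalk that holds the head still. All 17 nuclear subunits had log2 fold changes above 0 with the 4 libraries as deposited, with a median of 0.08. Without KO replicate 2, 15 of the 17 were above 0, and likewise 15 without control column 3. Atp5a1 fell below 0 with libraries scaled to a common total. In 12, or 70.6%, both KO values lay above both controls, against 22.0% of all tested genes. The head subunits Atp5a1 and Atp5b differed least: Atp5a1 had 27159 and 27145 in KO islets, against 27139 and 26966 in control islets, and Atp5b had 26032 and 25429 in KO islets, against 25748 and 25077 in control islets. Their log2 fold changes were 0.005 and 0.02, and that of Atp5a1 turned to -0.002 with libraries scaled to a common total. Atp5e, the smallest subunit of the head, had 3704 and 3555 in KO islets, against 3220 and 3405 in control islets, a log2 fold change of 0.13 ± 0.05 (limma adjusted p = 0.316). At 13346 per kilobase Atp5b had the highest level of all nuclear subunits, ahead of Cox8a and Atp5a1.

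In the peripheral stalk both KO values exceeded both controls in all 4 subunits, against 22.0% of all tested genes. Atp5h, subunit d, had 3316 and 3238 in KO islets, against 3052 and 2856 in control islets. Atp5o, the protein that joins the stalk to the head and gives oligomycin sensitivity, had 1440 and 1507 in KO islets, against 1377 and 1279 in control islets. Each had a log2 fold change of 0.15, with standard errors of 0.06 and 0.07 and limma adjusted p of 0.262 and 0.347. Of the 50-base stretches of their transcripts, 47.9% and 50.3% also occur in another annotated gene. Atp5pb and Atp5j had smaller log2 fold changes, 0.04 and 0.06.

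The c-ring protein is encoded by 3 genes whose mature products are alike and whose import sequences differ. Atp5g3 led in level per kilobase, at 6976, before Atp5g2 at 961 and Atp5g1 at 358. Atp5g3 had 5155 and 5280 in KO islets, against 5038 and 4701 in control islets, without overlap and with a log2 fold change of 0.10 ± 0.05. Atp5g1 and Atp5g2 had overlapping groups and log2 fold changes of 0.02 and 0.10. Of the 5 other membrane subunits 4 had both KO values above both controls, against 22.0% of all tested genes. The exception was Atp5l, at 624 and 699 in KO islets against 659 and 625 in control islets. Of its 50-base stretches, 84.8% were found in another annotated gene.

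**Figure D4:**
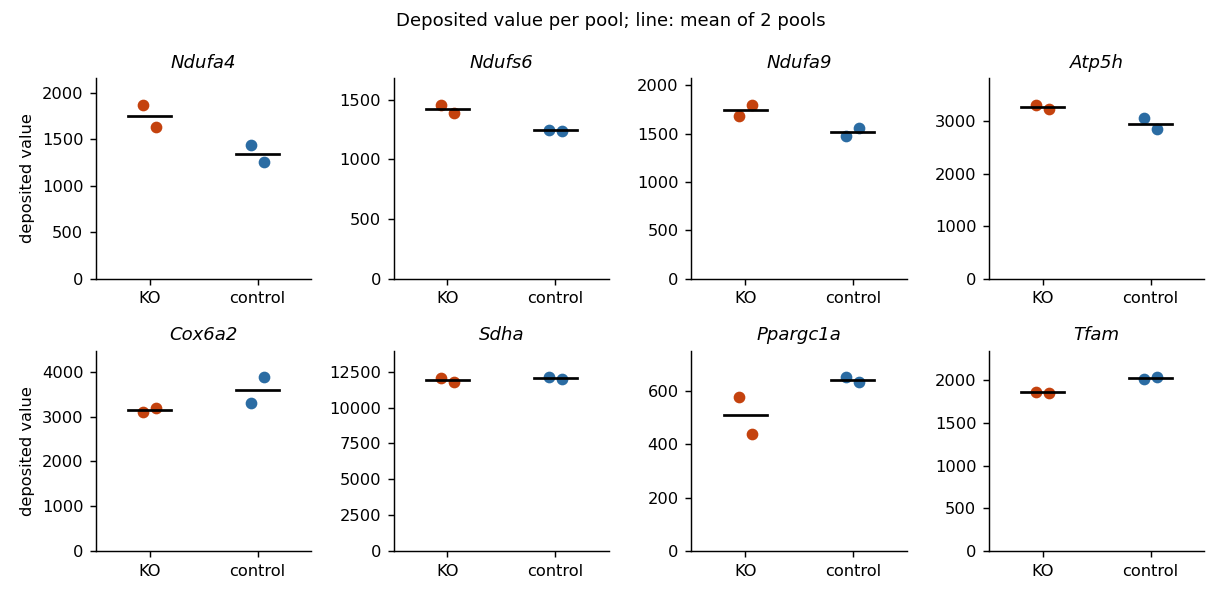
Deposited value of each pool (vertical axis, from 0) for 6 subunits and for the regulators Ppargc1a and Tfam, KO pools in orange left of control pools in blue, with lines at the mean of 2 pools. In Ndufa4, Ndufs6, Ndufa9 and Atp5h both KO pools lie above both control pools, in Cox6a2, Ppargc1a and Tfam below, and in Sdha the genotypes overlap.

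The mitochondrial genome was a larger source of reads than all nuclear subunit genes together. Its 13 protein-coding genes took 2.34% and 2.26% of all values in KO islets, against 2.24% and 2.32% in control islets, and the 84 nuclear subunits took 0.583% and 0.582% in KO islets, against 0.568% and 0.558% in control islets. The ratio of mitochondrial to nuclear subunit values was 4.02 and 3.88 in KO islets, against 3.95 and 4.15 in control islets, so the genotypes overlapped. Per kilobase the median was 104209 over the 8 mitochondrial members, against 3611 in complex V, 3247 in complex III, 3227 in complex II, 2965 in complex IV and 1976 in complex I over nuclear members.

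By complex, the nuclear genes of complex I took 0.175% and 0.178% of all values in KO islets, against 0.169% and 0.166% in control islets. Those of complex V took 0.199% and 0.198% in KO islets, against 0.196% and 0.191% in control islets. Complex III and complex IV separated the genotypes in the same way. In complex II the shares overlapped, at 0.0501% and 0.0490% in KO islets against 0.0502% and 0.0493% in control islets.

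Of the mitochondrial members, mt-Co1, the catalytic subunit of complex IV, was the highest, at 375666 and 376213 in KO islets, against 361825 and 370565 in control islets. mt-Cytb, the cytochrome b of complex III, had 239705 and 231941 in KO islets, against 234574 and 238667 in control islets. Of the complex I subunits, mt-Nd1 had 141035 and 136438 in KO islets, against 129922 and 136254 in control islets, and mt-Nd5 had 195114 and 181786 in KO islets, against 191085 and 196034 in control islets. mt-Nd2 lay between 103012 and 113825 and mt-Nd4 between 84990 and 90329 over the 4 libraries. The groups overlapped except in mt-Nd1 and mt-Co1, and log2 fold changes ran from -0.04 for mt-Nd5 to 0.11 for mt-Nd3. mt-Nd6, the one protein gene on the other strand of the circle, had 4087 and 3420 in KO islets, against 3760 and 3752 in control islets, and its log2 fold change of -0.01 turned positive with a common upper quartile, in edgeR and in DESeq2.

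The other 5 mitochondrial protein genes were close to 0. mt-Co2 had 4.16 and 7.67 in KO islets, against 7.15 and 5.85 in control islets. mt-Co3 is given above. mt-Atp6 had 2.08 and 4.79 in KO islets, against 2.04 and 6.82 in control islets. These encode the remaining core subunits of complex IV and a channel subunit of complex V. mt-Atp8 and mt-Nd4l stayed between 0 and 2.04 in every library. mt-Nd3 passed the rule at 120 and 105 in KO islets, against 115 and 93.5 in control islets.

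Some of these genes have an annotated copy in the nuclear genome. On chromosome 1, minus strand, 7 annotated pseudogenes between 24611535 and 24616197 (GRCm38) carry a copy of part of the mitochondrial genome. The annotated copies of mt-Co2, mt-Atp6, mt-Co3 and mt-Nd4l differ from them at 0 positions, over 681, 678, 783 and 294 bases, and that of mt-Nd3 at 1 of 345 positions (T3C, counted from the first base of mt-Nd3, with the mitochondrial base first). The starts of mt-Nd3 and of its copy are shown because this one base, in capitals, is their only difference.
mt-Nd3, chrM:9459-9518, plus strand: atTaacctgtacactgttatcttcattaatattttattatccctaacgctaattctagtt
Gm28438, chr1:24613060-24613119, minus strand: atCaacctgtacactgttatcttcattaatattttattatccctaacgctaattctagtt

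The copy begins within mt-Co1. Its junction is shown from base 1054 of mt-Co1, with capitals from base 1067, where both sequences become identical.
mt-Co1, chrM:6381-6447, plus strand: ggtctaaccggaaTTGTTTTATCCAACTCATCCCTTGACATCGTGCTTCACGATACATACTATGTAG
Gm29216, chr1:24616131-24616197, minus strand: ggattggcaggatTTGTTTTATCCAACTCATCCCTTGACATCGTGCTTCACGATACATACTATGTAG

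The share of a gene's 50-base stretches found in another annotated gene was 100% for mt-Co2, 99.9% for mt-Co3, 99.5% for mt-Atp6, 98.8% for mt-Nd4l and 98.0% for mt-Nd3. It was 62.2% for mt-Nd4, 51.1% for mt-Co1, 8.19% for mt-Nd2, 7.61% for mt-Nd5 and 0% for mt-Nd1, mt-Cytb, mt-Nd6 and mt-Atp8. Per kilobase, the 5 genes at 98.0% or more had 1.63 to 311 and the genes from 0% to 62.2% had 7235 to 240173, except mt-Atp8 at 4.87. No copy of mt-Atp8 is annotated. The space between the copies of mt-Co2 and mt-Atp6 is 233 bases, against 230 bases between these genes in the mitochondrial genome. The pseudogenes were also low, at 0 to 13.5 in every library. The authors' handling of reads that map to several places is not given in the sources used here, and its part in these low values was not tested.

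**Figure D5:**
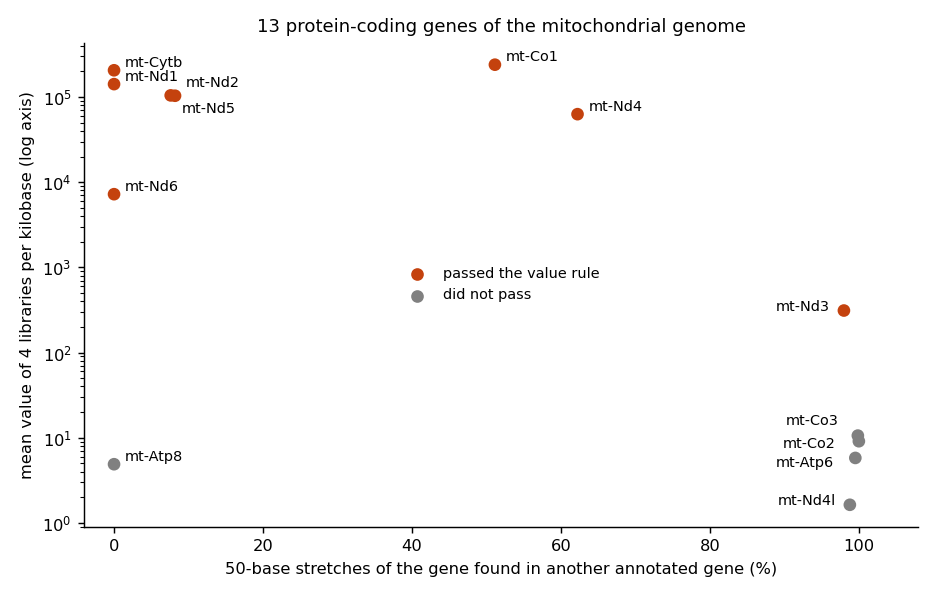
Mean value of 4 libraries per kilobase (vertical axis, log scale) against the share of 50-base stretches that occur in another annotated gene (horizontal axis, percent) for the 13 protein-coding genes of the mitochondrial genome. Genes at 98.0% or more lie between 1.63 and 311 per kilobase, and the others between 7235 and 240173 except mt-Atp8 at 4.87.

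Sequence shared with other genes also occurs among nuclear subunits, many of which have processed pseudogenes. Over the 35 nuclear subunits with no shared stretch the median log2 fold change was 0.06. Of these 35, 20 had both KO values above both controls, against 22.0% of all tested genes. Over the 31 that also overlap no exon of another tested gene the median was 0.06, with 28 above 0. Subunit genes are short, and 61 of the 84 fall among the shortest 4142 tested genes by exon length. There the median was 0.03 over all genes, against 0.07 over these subunits, and 26.5% of all genes had both KO values above both controls. Among the longest 4142 the median was -0.02 over all genes. By level, 47 of the 84 fall among the highest 4147 tested genes. There the median was -0.02 over all genes, against 0.06 over these subunits, and 17.2% of all genes had both KO values above both controls.

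The nuclear subunits were set beside lists of like function, which were chosen with results of these data known. Cytosolic ribosomal proteins, also short and abundant, had a median log2 fold change of 0.13 over 79 genes, with both KO values above both controls in 71, so the higher KO values were not particular to the respiratory chain. Their median deviations were 0.03 and 0.09 in the KO libraries, against -0.03 and -0.10 in control columns 2 and 3, the same order of libraries as in complexes I and V. Mitochondrial ribosomal proteins, which are also encoded in the nucleus and imported, had a median of -0.01 over 77 genes. Both KO values lay above both controls in 20, or 26.0%, and below in 17, or 22.1%. The 13 TCA cycle enzymes had a median of 0.00, with 1 above, or 7.69%, and 2 below, or 15.4%. All tested genes gave 22.0% above and 23.0% below.

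The counts were balanced among proteins that assemble the complexes. Of 53 assembly factors 50 were tested and none was called by limma in either direction, nor by edgeR or DESeq2. At an unadjusted limma p under 0.05, 0 were higher and 2 lower, where all tested genes gave 6.74% higher and 7.34% lower. The median of the assembly factors was 0.00. Both KO values lay above both controls in 9 and below in 10, where all tested genes gave 22.0% above and 23.0% below. The smallest p belonged to Tmem186, a complex I assembly factor, at 652 and 657 in KO islets against 796 and 792 in control islets (log2 fold change -0.28 ± 0.07, limma adjusted p = 0.118). Tmem126b, of the same assembly complex, had 1234 and 1256 in KO islets, against 1388 and 1393 in control islets (log2 fold change -0.16 ± 0.06, limma adjusted p = 0.277). Atpif1, the inhibitor of ATP synthase, had 2858 and 2880 in KO islets, against 2885 and 2793 in control islets.

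Of 23 genes for mitochondrial transcription, DNA replication and biogenesis, 22 were tested and none was called by limma in either direction, nor by edgeR or DESeq2, with 0 higher and 2 lower at an unadjusted limma p under 0.05. At that p, all tested genes gave 6.74% higher and 7.34% lower. The median over the 22 was -0.05, and 4 had a log2 fold change above 0. Both KO values lay below both controls in 11 and above in 1, where all tested genes gave 23.0% below and 22.0% above. Ppargc1a, the coactivator PGC-1alpha that drives respiratory gene expression in many tissues, had 577 and 439 in KO islets, against 652 and 632 in control islets (log2 fold change -0.35 ± 0.12, limma adjusted p = 0.238). Tfam, which packages mitochondrial DNA and starts its transcription, had 1866 and 1854 in KO islets, against 2021 and 2042 in control islets (log2 fold change -0.13 ± 0.05, limma adjusted p = 0.337). The mitochondrial transcription factor Tfb2m and the elongation factor Tefm had log2 fold changes of -0.21 and -0.19, again with both KO values below both controls. Nrf1, the transcription factor whose motif is common at subunit promoters, had 1147 and 1201 in KO islets, against 1026 and 1158 in control islets, with overlapping groups.

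Promoter sequence was not used by the name rule. RefSeq windows from 250 bases before to 50 bases after the start (GRCm38.p6) matched 66 of the 84 nuclear subunits. The NRF1 core GCGCNTGCG occurred on either strand in 25 of them, or 37.9%, against 7.12% of 27025 genes. The ETS motif CCGGAAGT, bound by GABP, occurred in 5, or 7.58%, against 4.31% of all genes. The YY1 core AANATGGCG occurred in 10, or 15.2%, against 2.76%. Matches of these motifs did not overlap one another in the stretches printed here, and a match describes letters, not a bound site. The median log2 fold change was 0.08 over the 25 subunits with the NRF1 core and 0.06 over the 41 without it.

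The promoters of Atp5h and Sdha are shown because both hold NRF1 matches while their values differ in pattern, above the controls in Atp5h and overlapping in Sdha. Capitals mark the motif matches. The Atp5h stretch runs from 150 to 32 bases before the RefSeq start and holds 1 NRF1 and 1 ETS match, and the Sdha stretch runs from 110 to 46 bases before it and holds 2 of the 3 NRF1 matches in that window.
Atp5h, chr11:115419951-115420069, minus strand: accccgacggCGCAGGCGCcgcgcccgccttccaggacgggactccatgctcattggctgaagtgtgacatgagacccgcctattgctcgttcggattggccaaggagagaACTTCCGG
Sdha, chr13:74350286-74350350, minus strand: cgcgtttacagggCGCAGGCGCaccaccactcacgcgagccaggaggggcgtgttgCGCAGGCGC

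Marker RNA levels of several other cell types lay apart by genotype. All 8 tested acinar markers had both KO values below both controls, with sums of 6544 and 11399 in KO islets against 13628 and 15305 in control islets, and Amy2a5 was near 0 in every library. All 6 stellate markers had both KO values above both controls, with sums of 3250 and 2409 in KO islets against 2018 and 1510 in control islets. Of 6 alpha cell markers 5 had both KO values above both controls, with sums of 1666091 and 1383401 in KO islets against 1173986 and 1370456 in control islets. All tested genes gave 22.0% above and 23.0% below. All 3 delta cell markers had both KO values above both controls. Sums of the 8 beta cell markers, given above, were higher in both KO libraries, while their median log2 fold change was -0.01. Of these 8, 2 had both KO values above both controls, and 2, Slc2a2 and Ucn3, had both below. The part of these differences in the subunit values was not tested.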

How the data were processed

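One table of 55487 genes was used. Per the file headers, the authors deposited for each gene a signal in every library, namely reads normalized to library size. In each column the signal of 1 read was found, and 100% of the values came out as whole reads (tolerance 0.01 of a read). The authors' deposited columns also hold a log2 fold change, whose sign runs control over KO, a score (their test statistic), and a raw and an adjusted p-value. GRCm38, STAR 2.5.1b, featureCounts 1.6.0, DESeq2 1.22.2 and CASAVA 1.4 appear in the submitters' processing notes, with no role stated. Annotation, strand and multi-mapping settings are not given in the sources used here. KO columns were matched to samples by name. Control columns were matched to their group, because they are numbered 2 and 3 and the labels number the samples otherwise. Per-sample columns of other samples numbered 0.

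The 16589 genes reaching 10 in 2 or more libraries were tested two-sided on the log2(value + 1) scale, which understates changes of low genes, in limma 3.58.1 (R 4.3.3), using eBayes with a trend and Benjamini-Hochberg adjustment at 0.05. The steps were tested on simulated data. Permuting 2 against 2 exactly gives no p below 0.333. Nothing in the labels describes the pools beyond separate samples of 2 mice, so p-values measure the spread between these pools. Alternatives were edgeR 4.0.16 (quasi-likelihood, TMM) and DESeq2 1.42.0 on the recovered reads, pseudocounts of 0.5 and 5, other filters and scalings, limma without trend or robust, and leaving out each library. At 47624630 to 51756221 reads per library, 1 read was worth 0.959 to 1.04 in value, so values are close to read numbers. Counting error was not separated from differences between pools. It weighs most on low genes and on small log2 fold changes.

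Members and lists were chosen with earlier results of these data known. Named genes were all mitochondrial protein genes, complex II, Cyc1, Cycs, the extremes of log2 fold change, p and level per kilobase in the other complexes, paralogs, rows that failed the rule on values, the 4 smallest p among assembly and expression genes, and Ggcx. Other subunits, such as Ndufa9, Ndufs6, Ndufb2, Ndufb3 and Cox7a2, were added after their values were seen, as were the motifs. Lengths (principal transcript), coordinates and shared 50-base stretches come from GENCODE M21 on GRCm38, which holds 99.4% of the identifiers, and promoters from RefSeq. Of the nuclear subunits, 23 overlap exons of another tested gene. Protein sequences were not used here. A gene that the rule names is not reported here.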

Additional observations from a re-analysis of the deposited data

How the results depend on the processing

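No paired analysis was possible because the control columns carry numbers that the labels do not, so they cannot be tied to replicate numbers; the replicate block was not run. Genes called higher and lower among all tested numbered 41 and 62, against 1 and 1 with no filter on low values, 19 and 32 with a filter at 50, 0 and 0 without the trend, 85 and 124 with robust empirical Bayes, 120 and 208 in DESeq2, and 58 to 207 and 49 to 241 with a library left out. DESeq2 called 2 subunits higher, of 89 with an adjusted p, against 0.943% of all genes with an adjusted p. All tested genes with both KO values above both controls numbered 5753 to 6094 with a library left out, where fewer values need to separate. Medians with a library left out, lowest without control column 3 and highest without column 2, ran from 0.040 to 0.081 over all subunits, 0.040 to 0.087 over nuclear ones, 0.047 to 0.078 in complex I, -0.011 to 0.046 in complex II, 0.035 to 0.095 in complex IV and 0.046 to 0.108 in complex V. The common upper quartile gave 0.083 in complex III. Ggcx lost its call with no filter (adjusted p = 0.217), without the trend (0.329) and with robust fitting (0.294). Over mitochondrial subunits the median ran from -0.0090 without KO replicate 1 to 0.079 without KO replicate 2.

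Small log2 fold changes changed sign. With a common total, Atp5a1, Sdhc, Uqcrb, Uqcrc2 and Ndufb3 were at -0.0025, -0.00083, -0.0036, -0.00049 and -0.0036, and with the total of nuclear genes at -0.0021, -0.00045, -0.0032, -0.00011 and -0.0032. With a common upper quartile, mt-Cytb, mt-Nd6 and Ndufv1 were at 0.014, 0.012 and 0.0023, and mt-Nd6 was at 0.0032 in edgeR and 0.0011 in DESeq2. The sign turned without KO replicate 1 in mt-Nd2 (range with each library left out -0.0077 to 0.11), mt-Nd4 (-0.010 to 0.073) and Uqcrc2 (-0.033 to 0.047). It turned without KO replicate 2 in Atp5g2 (-0.033 to 0.23), mt-Nd5 (-0.090 to 0.012), mt-Nd6 (-0.13 to 0.12), Ndufs7 (-0.012 to 0.14), Ndufv1 (-0.038 to 0.0052) and Atp5l (-0.040 to 0.12). It turned without control column 3 in Ndufa4l2 (-0.081 to 0.30), mt-Nd3 (-0.045 to 0.26), Atp5b (-0.0011 to 0.037), Atp5g1 (-0.098 to 0.14), Cox4i2 (-0.0070 to 0.44), Ndufs3 (-0.029 to 0.069) and Cox5b-ps (-0.036 to 0.29). It turned without either KO replicate 1 or control column 3 in Cycs (-0.016 to 0.20), Sdhc (-0.031 to 0.045), Uqcrb (-0.020 to 0.028) and Ndufb3 (-0.047 to 0.055), and without either KO replicate 2 or control column 3 in Cox7a1 (-0.34 to 0.19) and mt-Cytb (-0.029 to 0.019). The cause was not tested.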

Other observations

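The mitochondrial genome also gave values for its ribosomal and transfer RNAs. The large ribosomal RNA mt-Rnr2 had 101460 and 101228 in KO islets, against 92248 and 102124 in control islets, and the small one, mt-Rnr1, had 14970 and 15525 in KO islets, against 14948 and 15238 in control islets. Among the tested transfer RNAs, mt-Tw had 405 and 365 in KO islets, against 294 and 288 in control islets, a log2 fold change of 0.40 ± 0.10 (limma adjusted p = 0.118). mt-Tl1 had 258 and 263 in KO islets, against 232 and 190 in control islets, a log2 fold change of 0.31 ± 0.13 (limma adjusted p = 0.334). Exons of mt-Tw overlap those of mt-Nd2 on the same strand.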
